A study of Homo sapiens with 6 samples.

Results

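A set of 10 genes of apical membrane trafficking was examined in a human colorectal carcinoma line sorted by the stem cell surface antigen CD133. They comprised MAL2, MAL, RAB25, RAB11A, RAB11FIP1, MYO5B, STX3, VAMP8, SYTL2 and SYTL4. Each was taken from the probe sets that carry its symbol alone in the platform annotation, and 10 of 10 were found, among 18404 genes on the array. Every one of them had a single such probe set. The set was selected on the difference between the fractions, CD133-positive minus CD133-negative within repetitions, with that of MAL2 and RAB25 already known. The differences between fractions are therefore given as a description. Counts from limma on that contrast are printed for the set but are not read as a test.

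The study measured total RNA of HCT116 cells, an established epithelial line grown from a colorectal carcinoma. Of the 6 arrays, 3 held the CD133-positive fraction and 3 the CD133-negative fraction, and repetitions 1, 2 and 3 were numbered alike in both fractions. The labels give no treatment, time or genetic change, and both fractions came from the same line. They do not say that repetitions were separate cultures or sorts, so any p-value measures only the spread between these arrays, which may be technical.

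Epithelial cells keep apical and basolateral membranes apart by sorting proteins into separate carriers. MAL and MAL2 are small proteolipids that cross the membrane several times and take part in raft-dependent delivery and in transcytosis to the apical surface. RAB11A and its epithelial relative RAB25 are small GTPases of the apical recycling endosome, where RAB11FIP1 and the motor MYO5B act as their effectors. STX3 and VAMP8 are SNARE proteins of fusion at the apical membrane and on endosomes, and SYTL2 and SYTL4 tether RAB27-bearing vesicles to it. CD133 itself is a glycoprotein of apical membrane protrusions.

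The stretches of DNA just before the starts of RAB25 and RAB11A are printed because these close relatives differed in direction between the fractions. CD133-positive minus CD133-negative was 0.53 for RAB25 on the log2 scale. For RAB11A it was a small -0.15, with -0.055 in repetition 1. They are the 250 bases before the start from RefSeq on GRCh38.p14, both on the plus strand, at chr1:156060910-156061159 for RAB25 and chr15:65869241-65869490 for RAB11A. Capitals mark 3 motifs searched on both strands. These are CACCTG (reverse CAGGTG), an E-box bound by ZEB and SNAI repressors of epithelial genes, GGAAG (reverse CTTCC), a core of ETS factor sites, and AACNNGTT, a form of the Grainyhead-like site.
RAB25: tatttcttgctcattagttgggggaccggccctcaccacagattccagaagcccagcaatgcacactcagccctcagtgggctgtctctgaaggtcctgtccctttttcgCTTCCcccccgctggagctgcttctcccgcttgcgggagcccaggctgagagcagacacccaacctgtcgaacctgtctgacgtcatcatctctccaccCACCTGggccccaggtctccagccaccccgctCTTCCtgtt
RAB11A: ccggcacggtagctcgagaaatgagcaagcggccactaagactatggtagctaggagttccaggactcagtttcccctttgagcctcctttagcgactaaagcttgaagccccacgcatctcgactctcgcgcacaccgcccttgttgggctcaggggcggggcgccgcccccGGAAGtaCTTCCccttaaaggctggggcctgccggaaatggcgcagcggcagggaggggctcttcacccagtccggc

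The RAB25 stretch held 1 E-box, whose first base lay 41 bases before the start, and 2 ETS cores. The RAB11A stretch held 0 E-boxes and 2 ETS cores, and neither held AACNNGTT. No match overlapped another in these stretches. Over 35116 RefSeq stretches of the same length, 17.5% held the E-box, 65.1% the ETS core and 3.00% AACNNGTT, so an ETS core is common and a match is a description only. Windows were matched for 7 of the 10 genes, SYTL4 with 2 starts. MYO5B held 3 E-boxes, and MAL, STX3, VAMP8 and both SYTL4 windows held 0. The RAB25 window had 8 CpG dinucleotides and that of VAMP8 had 6, against 18 for RAB11A, 26 for MAL, 30 for STX3 and 37 for MYO5B. The 2 SYTL4 windows had 7 and 17, and the median of all windows was 11.

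Arrays were checked on the sorted gene first. PROM1, which encodes CD133, had signals of 7.59, 7.36 and 7.09 in CD133-positive cells, against 5.30, 4.46 and 3.97 in CD133-negative cells, with no overlap. Its difference of 2.77 was the highest of 18404 genes. PROM1 still missed the threshold of 0.05 in the limma fit on group alone, where its adjusted p was 0.142. Adding the repetition block brought the PROM1 value to 0.0120. Failing the fit on group alone is therefore no evidence that a gene was alike in both fractions. Of 11 measured colorectal epithelial markers, 8 had a mean above the median probe set, EPCAM among them, while KRT20, VIL1 and LGALS4 were below it. Between fractions 7 of the 11 were higher and 4 lower, and limma passed 0 in either fit (2 at an unadjusted p under 0.05 with group alone, 4 with the block). Over all probe sets, 3.45% and 11.3% were under 0.05 unadjusted in these fits. The fractions did not overlap for 1 of the 11 that was higher and 2 that were lower, beside 7.95% of all genes in either direction. CLDN7 had a difference of 0.48 and CDH1 0.40, whereas the keratin genes KRT18 and KRT8 had -0.48 and -0.24, and the fractions overlapped for CDH1 alone of these 4. Markers of leukocytes, fibroblasts and endothelium lay above the median in 2 of 16 cases. Their mean signal was 4.28 to 4.53 over the CD133-positive arrays and 4.32 to 4.58 over the CD133-negative arrays, and 4 of 16 were higher in CD133-positive cells. The part of these marker differences in the results was not tested.

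Signals are the authors' Robust Multichip Average values on a log2 scale, and every difference is CD133-positive minus CD133-negative on that scale. MAL2 and RAB25 were the members that stood farthest above 0. VAMP8 and SYTL2 were also higher in CD133-positive cells in 3 of 3 repetitions, with mean differences of 0.23 and 0.24. RAB11A, MYO5B and STX3 were lower in CD133-positive cells in 3 of 3 repetitions by smaller amounts than MAL2 and RAB25 were higher. MAL, RAB11FIP1 and SYTL4 lay within 0.06 of 0. Of the 10 differences, 8 were smaller than 0.25 in size, and the median was -0.0086, beside -0.0064 over all 18404 genes.

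**Figure D1:**
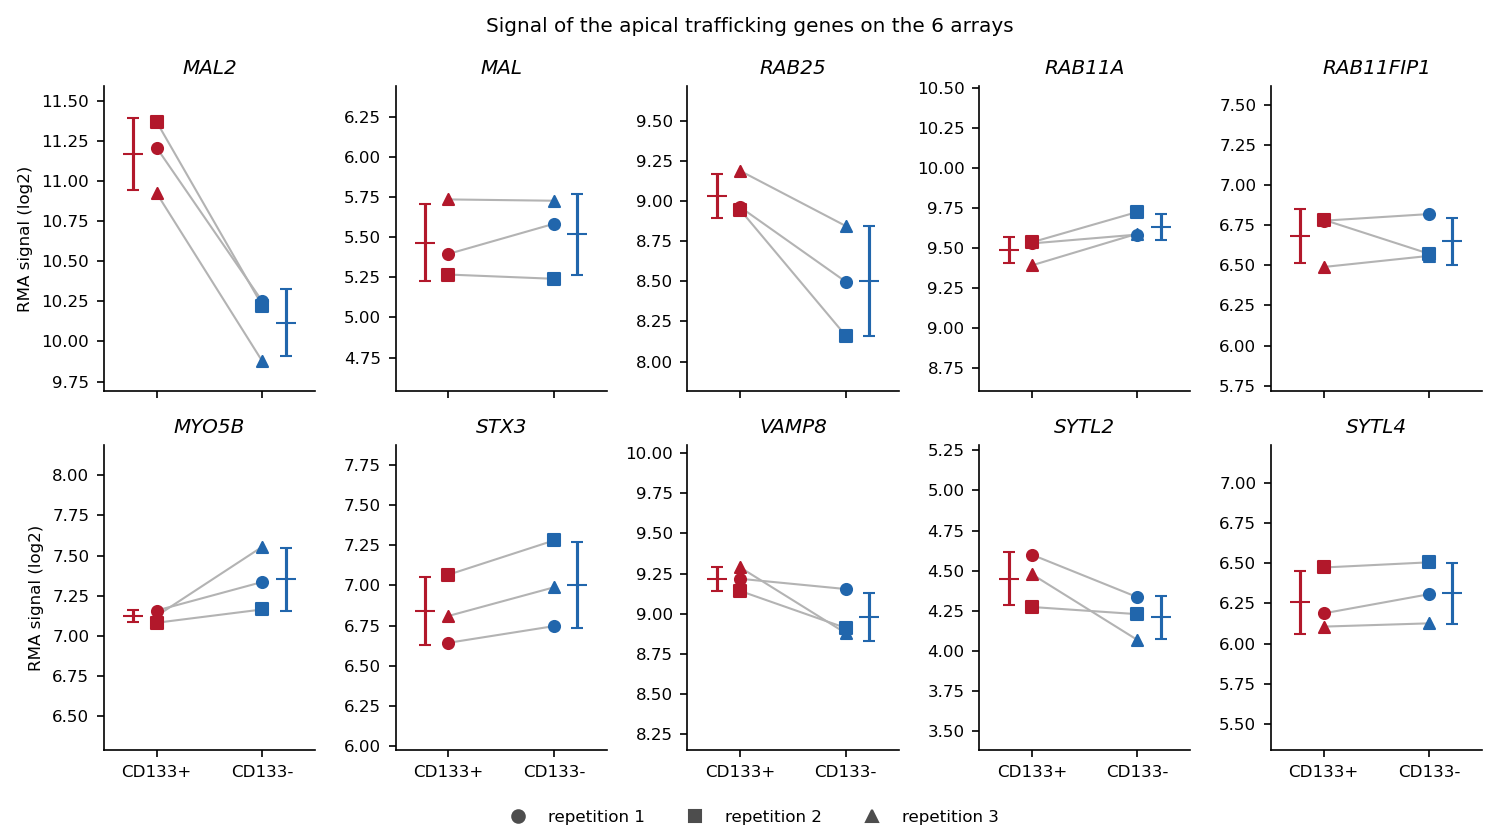
Signal (log2 RMA) of the 10 genes on the 6 arrays, with CD133+ left of CD133-. Points are arrays, shapes mark the repetition, grey lines join arrays of one repetition, and bars beside them give the mean and SD of 3 arrays. Every panel spans the same height on the log2 scale. The lines of MAL2 and RAB25 slope down steeply from CD133+ to CD133-, and those of MAL, RAB11FIP1 and SYTL4 are nearly level on average.

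MAL2 acts in transcytosis and apical delivery in polarized epithelia. MAL2 gave 11.21, 11.37 and 10.92 in CD133-positive repetitions 1, 2 and 3, against 10.25, 10.22 and 9.88 in CD133-negative repetitions 1, 2 and 3. The lowest CD133-positive array lay above every CD133-negative array. The mean was 11.17 ± 0.22 in the CD133-positive fraction and 10.12 ± 0.21 in the CD133-negative fraction (SD, 3 arrays each), a difference of 1.05 or 2.07-fold. Within repetitions 1, 2 and 3 the difference was 0.96, 1.14 and 1.05, so that the spread of the difference over repetitions was small beside its size. In order of difference over 18404 genes, MAL2 was number 19 from the highest. These are pooled cells, so more cells with a transcript and more of it per cell cannot be told apart.

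MAL, the founding relative of MAL2, did not share this pattern. MAL gave 5.40, 5.27 and 5.73 in CD133-positive cells and 5.58, 5.24 and 5.73 in CD133-negative cells, in the order of repetitions 1 to 3. The fractions overlapped, and both were ordered by repetition in the same way. The difference was -0.051, with -0.19, 0.026 and 0.0081 within repetitions. The mean of MAL over 6 arrays, 5.49, lay just under the median probe set of 5.53, and no detection call came with the values.

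RAB25, a RAB11 subfamily GTPase found mainly in epithelia, was also higher in CD133-positive cells. RAB25 gave 8.96, 8.95 and 9.19 in CD133-positive repetitions 1, 2 and 3, against 8.50, 8.16 and 8.84 in CD133-negative repetitions 1, 2 and 3. The fractions did not overlap, although the gap between CD133-positive repetition 2 and CD133-negative repetition 3 was narrow. The means were 9.03 ± 0.14 in the CD133-positive fraction and 8.50 ± 0.34 in the CD133-negative fraction (SD, 3 arrays each), a difference of 0.53 or 1.44-fold. Within repetitions it was 0.46, 0.78 and 0.34, the largest in repetition 2, whose CD133-negative array had the lowest signal of the 6. RAB25 was number 145 from the highest of 18404 genes.

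RAB11A, the widely expressed GTPase of the same subfamily, went the other way by a small amount. RAB11A gave 9.53, 9.54 and 9.39 in CD133-positive cells and 9.58, 9.73 and 9.59 in CD133-negative cells. Every CD133-positive array was below every CD133-negative array, with a difference of -0.15 and values of -0.055, -0.19 and -0.20 within repetitions. MYO5B, the myosin V motor that binds RAB11 on apical recycling endosomes, was lower as well. MYO5B gave 7.16, 7.08 and 7.12 in CD133-positive cells and 7.34, 7.16 and 7.56 in CD133-negative cells. The difference was -0.23. The fractions did not overlap, but CD133-positive repetition 1 and CD133-negative repetition 2 both round to 7.16, and repetition 3 contributed most of it, at -0.43 beside -0.18 and -0.083 in repetitions 1 and 2. RAB11FIP1, an effector that links RAB11 and RAB25 to recycling, averaged 6.68 ± 0.17 in the CD133-positive fraction and 6.65 ± 0.15 in the CD133-negative fraction (SD, 3 arrays each). Its difference of 0.034 took both signs, with -0.041, 0.21 and -0.069 within repetitions.

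STX3, the syntaxin of the apical membrane, differed more between repetitions than between fractions. STX3 gave 6.64, 7.07 and 6.81 in CD133-positive cells and 6.75, 7.28 and 6.99 in CD133-negative cells. The fractions overlapped, yet CD133-positive cells were lower within each repetition, by -0.10, -0.21 and -0.18. VAMP8, a vesicle SNARE of endosomes and secretory granules, gave 9.22, 9.14 and 9.29 in CD133-positive cells and 9.15, 8.91 and 8.88 in CD133-negative cells. CD133-positive cells were higher within each repetition, although repetition 1 differed by only 0.064, against 0.23 and 0.41 in repetitions 2 and 3. CD133-negative repetition 1 lay above CD133-positive repetition 2, so the fractions overlapped.

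Both synaptotagmin-like tethers bind RAB27. SYTL2 gave 4.60, 4.27 and 4.48 in CD133-positive cells and 4.33, 4.23 and 4.07 in CD133-negative cells, a difference of 0.24. Within repetitions SYTL2 differed by 0.26, 0.045 and 0.41, the fractions overlapped, and its signal was under the median probe set on every array. SYTL4 averaged 6.26 ± 0.19 in the CD133-positive fraction and 6.31 ± 0.19 in the CD133-negative fraction (SD, 3 arrays each). The SYTL4 difference was -0.057, and it was negative in 3 of 3 repetitions, at -0.12, -0.032 and -0.020.

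**Figure D2:**
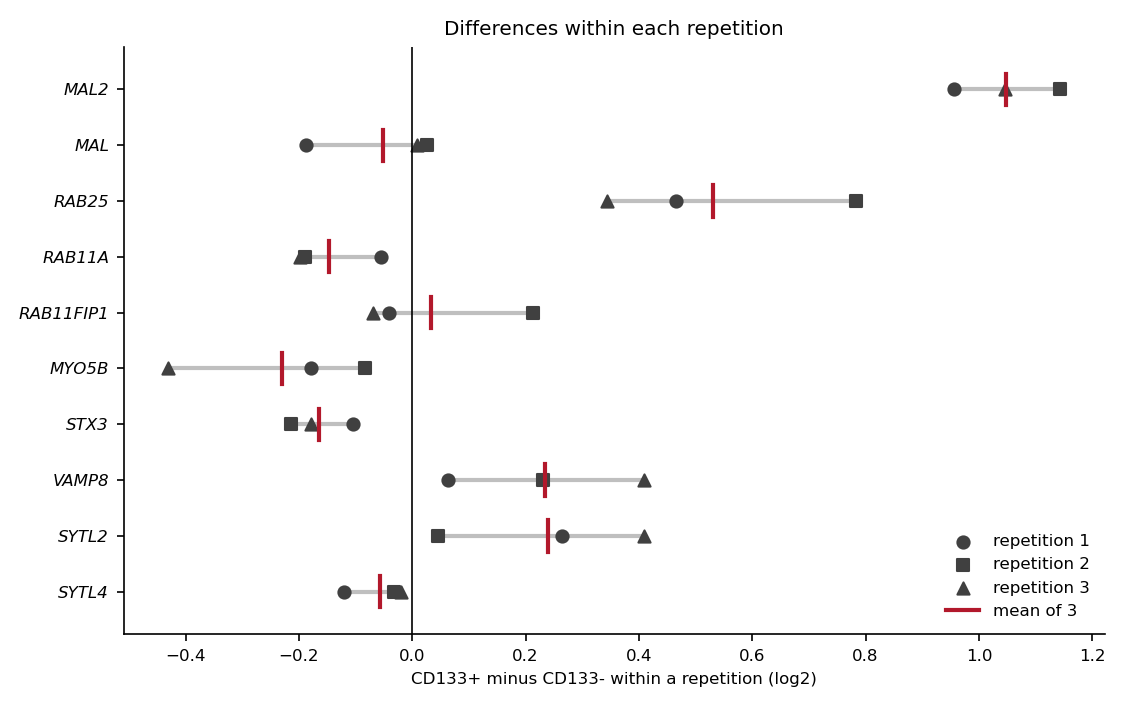
Difference of CD133+ minus CD133- within each repetition (log2) for the 10 genes. Shapes mark the repetition, grey bars span the 3 values and red ticks are their mean. MAL2 lies between 0.96 and 1.14 and RAB25 between 0.34 and 0.78, and MAL and RAB11FIP1 span 0.

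The sign was the same within all 3 repetitions for 8 of the 10 genes, 4 higher and 4 lower, where 36.1% of all genes had one sign throughout. The fractions did not overlap for 4 genes, MAL2 and RAB25 higher and RAB11A and MYO5B lower, where 7.95% of all genes did not overlap. With group as the only term, limma passed 0 of the 10 genes, beside 0.00354% of 28230 probe sets. With the repetition as a block it passed 1, MAL2, beside 0.298%. At an unadjusted p under 0.05 the same fits had 2 of the 10 genes (3.45% of probe sets) and 4 (11.3%). Without either array of repetition 2 or of repetition 3, or with the leading unannotated rows of the table included, the block fit passed 0 of the 10. With the filter on dim probe sets it passed 2 of the 8 genes kept, MAL2 and RAB25, beside 403 of 14115 probe sets. With trend and robust variances it passed the same 2, beside 389 of 28230 probe sets. These counts describe a set drawn up on this contrast, and nothing is read from them.

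The choice of genes had not used the differences among repetition means, since in this balanced design they are independent of the contrast between fractions. The F test sets them against the residual, which is the spread of the within-repetition differences. That spread was open to the choice, so the test is not fully separate from it. Limma's F test of the repetition terms, in a fit with group and repetition, passed 0 of the 10 genes at an adjusted p under 0.05, while 13.0% of probe sets passed. At an unadjusted p under 0.05 there were 5 of 10, against 34.3% of probe sets. The smallest adjusted p was that of STX3 at 0.0513, whose repetition means were 6.70, 7.17 and 6.90, followed by MAL at 0.0629, with 5.49, 5.25 and 5.73. MAL2 had an adjusted p of 0.0762 and lower signal in repetition 3, at 10.40 beside 10.73 and 10.80. SYTL4 had an adjusted p of 0.0889, RAB25 had 0.109, and the other 5 genes had 0.254 to 0.572. After centring on array medians the count was 3, where 4845 of 28230 probe sets passed. With trend and robust variances it was also 3, where 6335 of 28230 passed. With the filter on dim probe sets it was 4 of the 8 genes kept, where 6791 of 14115 passed. MAL2 and STX3 were among the genes that passed in each of these settings.

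Shares of each gene's total sum of squares over 6 arrays are given as a description. They order the genes differently from the F test, since MAL2 had the smallest repetition share, 9.76%. Fractions took 89.8% for MAL2, 61.0% for RAB25, 59.7% for VAMP8 and 55.7% for RAB11A. Repetitions took 94.8% for SYTL4, 92.7% for MAL, 84.0% for STX3 and 74.6% for RAB11FIP1. RAB11FIP1, VAMP8 and MYO5B left 23.8%, 21.6% and 20.3% to neither.

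**Figure D3:**
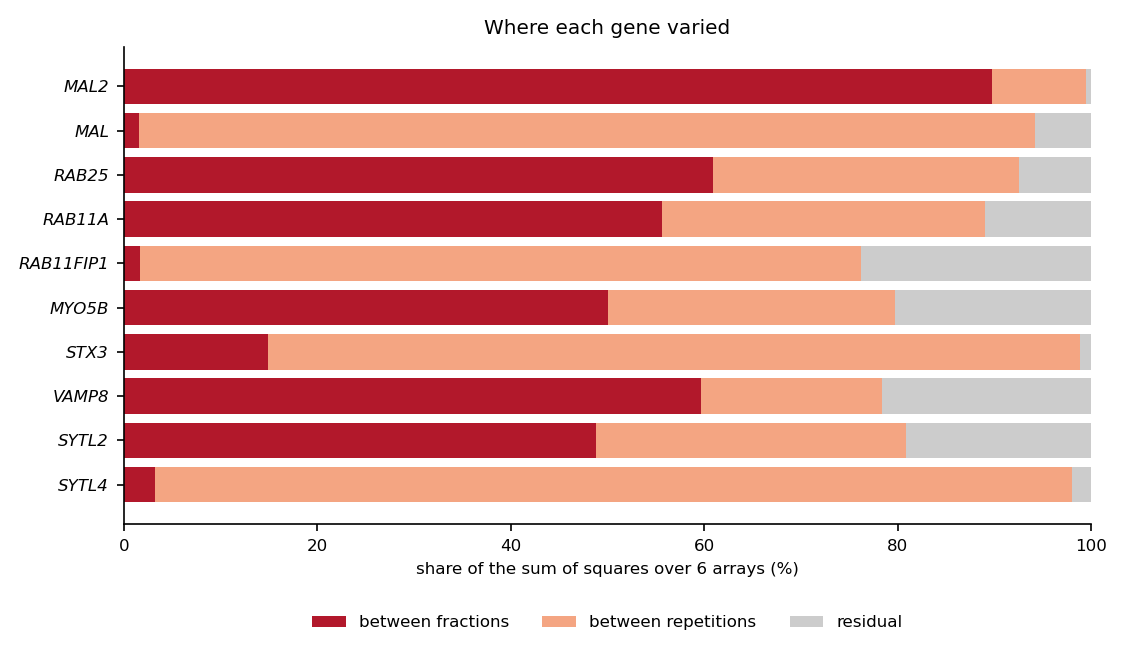
Share of each gene's sum of squares over 6 arrays (%), split between fractions, repetitions and the residual. MAL2 is nearly all fraction at 89.8%, while SYTL4, MAL, STX3 and RAB11FIP1 are mostly repetition.

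Genes whose pattern over the 6 arrays was most like that of MAL2 were ranked by the root mean square difference of log2 profiles, each centred on its own mean. The nearest was GALNT14, an enzyme of mucin-type glycosylation, at 0.052, then the kinase gene RPS6KA3 at 0.091. CPOX, an enzyme of haem synthesis, followed at 0.099, then TMC5, a transmembrane channel-like gene, at 0.12 and GPR15, a chemoattractant receptor gene, at 0.13. GALNT14 gave 6.71, 6.88 and 6.41 in CD133-positive and 5.81, 5.64 and 5.46 in CD133-negative cells. The order of repetitions was that of MAL2 in both fractions, which picking genes for likeness over these arrays favours. RAB25 itself stood at 0.45 from MAL2, with 857 genes nearer.

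For RAB25 the nearest were the tetraspanin gene TSPAN2 at 0.11, the kinase gene STK39 at 0.12, LRFN5, of neuronal adhesion, at 0.12, TCEAL3 at 0.13 and CRYBG1 at 0.13. STK39 gave 10.43, 10.33 and 10.50 in CD133-positive and 10.13, 9.79 and 10.27 in CD133-negative cells, with the low CD133-negative array in repetition 2 as for RAB25. TSPAN2 and LRFN5 lay under the median probe set. Among the 10 genes VAMP8 was nearest to RAB25, at 0.27, with 1584 genes nearer. These distances rest on 6 arrays that share repetitions, and they include the contrast between fractions on which the set was selected. The nearest genes were picked for likeness over these arrays, so features they share with MAL2 or RAB25 are favoured by that choice.

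The 7 lists of other trafficking genes were chosen with earlier results of these data known, so their counts are a description. They held 136 measured genes, and 1 of them, DPP4, passed when repetition was a block. With group as the only term limma passed 0 of 136, against 14 at an unadjusted p under 0.05, where 3.45% of all probe sets were. The block fit, which passed 0.298% of all probe sets, had 21 at an unadjusted p under 0.05, where 11.3% of all probe sets were. Of the 136, 59 were higher and 77 lower, with a median difference of -0.031, beside -0.0064 over all genes. Fractions did not overlap for 12 genes that were higher and 10 that were lower, beside 7.95% of all genes in either direction.

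**Figure D4:**
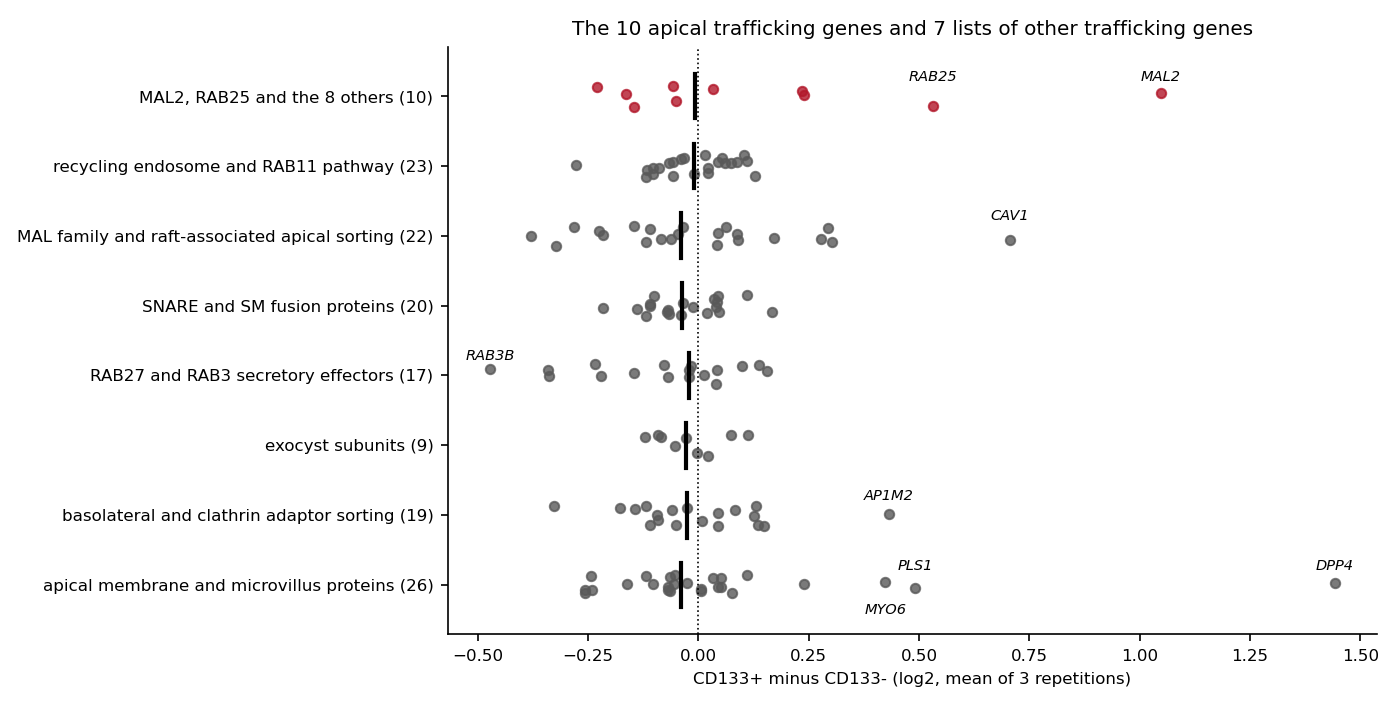
Difference of CD133+ minus CD133- (log2, mean of 3 repetitions) for the 10 genes (red) and for 7 lists of other trafficking genes (grey). The number measured is in brackets, black ticks are list medians, and genes beyond 0.4 are named. List medians lie between -0.040 and -0.0091, and DPP4, CAV1, PLS1, AP1M2 and MYO6 lie on the right.

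In the recycling endosome list 11 of 23 genes were higher and 12 lower, 22 of 23 differed by less than 0.25, and 0 passed in either limma fit (0 at an unadjusted p under 0.05 with group alone, 1 with the block). OPTN, an adaptor that binds RAB8, had the smallest unadjusted p at a difference of -0.28, followed by the epithelial GTPase RAB17 at 0.10. RAB11B, the third gene of the subfamily, chosen after its value was seen, averaged 9.33 ± 0.10 in the CD133-positive fraction and 9.31 ± 0.12 in the CD133-negative fraction (SD, 3 arrays each). None of the 9 exocyst subunits passed in either fit, and 0 were under 0.05 unadjusted. EXOC6B and EXOC4 had differences of -0.12 and -0.091.

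Relatives of MAL and raft-associated genes had 10 of 22 higher and 12 lower, and limma passed 0 in either fit (5 at an unadjusted p under 0.05 with group alone, 7 with the block). CAV1, the caveolin of plasma membrane caveolae, gave 9.56, 9.92 and 9.67 in CD133-positive and 8.98, 9.05 and 9.00 in CD133-negative cells. It had a difference of 0.71 without overlap and an adjusted p of 0.341 with group alone and 0.0566 with the block. CMTM3, a MARVEL-domain protein like MAL, had -0.38. MALL, a MAL-like protein chosen after its value was seen, had 0.30 without overlap, so that MAL2, MAL and MALL had differences of 1.05, -0.051 and 0.30.

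Among SNARE proteins and their SM partners, 8 of 20 were higher and 12 lower, and limma passed 0 in either fit, with 0 under 0.05 unadjusted. STX11 had -0.22 and STX8, of late endosomes, 0.17. Among RAB27 and RAB3 effectors 6 of 17 were higher and 11 lower, and 0 passed (3 under 0.05 unadjusted with group alone, 4 with the block). RAB27A, the GTPase that SYTL2 and SYTL4 bind, gave 6.09, 6.17 and 6.19 in CD133-positive and 6.44, 6.49 and 6.55 in CD133-negative cells. These did not overlap, with a difference of -0.34 and adjusted p of 1.00 and, with the block, 0.189. RAB3B, a related secretory GTPase, had -0.47, with adjusted p of 0.980 and 0.155.

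Basolateral and clathrin adaptor genes had 9 of 19 higher and 10 lower, and 0 passed (2 under 0.05 unadjusted in each fit). AP1M2, the medium chain of the epithelial AP-1B adaptor that sorts to the basolateral side, gave 8.30, 8.18 and 8.26 in CD133-positive and 7.83, 7.83 and 7.78 in CD133-negative cells. Its difference was 0.43 without overlap, at adjusted p of 0.758 and, with the block, 0.134. AP1S2, a small chain of AP-1, had -0.33.

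Among apical membrane and microvillus proteins 12 of 26 were higher and 14 lower. Limma passed 0 with group alone (4 under 0.05 unadjusted) and 1 with the block (7 under 0.05 unadjusted). With the block fit DPP4, a peptidase of the apical brush border, was higher in CD133-positive cells (limma, adjusted p = 0.0203). It was number 6 from the highest of 18404 genes by difference, in a list chosen with earlier results known. DPP4 gave 7.98, 7.03 and 6.91 in CD133-positive cells and 6.66, 5.32 and 5.61 in CD133-negative cells, a difference of 1.44 or 2.72-fold. The DPP4 call ended without either array of repetition 3 (adjusted p = 0.108) and with the leading unannotated rows included (adjusted p = 0.109), and with group as the only term it was 0.992. PLS1, a bundling protein of microvilli, and MYO6, a motor at their base, had 0.49 and 0.42 and were picked with their values in view. Their block adjusted p was 0.0921 and 0.147. In this list the fractions did not overlap for 5 genes that were higher and 2 that were lower, beside 7.95% of all genes in either direction.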

How the data were processed

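The deposited values are log2 signals that the authors made with Robust Multichip Average, per the labels' design text and the submitters' processing notes; its version and options are not given in the sources used here. That they are log2 follows from their range. Although a U133 array is named in the design text, the probe identifiers match a Human Gene ST platform, so that platform's annotation was used. Of 32321 rows, a leading block of 4091 without annotation was left out as controls, and 28230 probe sets were tested. Probe sets with 1 symbol represented 18404 genes, each by its probe set of highest mean. No dimness filter was used, and 0 columns were left unused. The number of arrays limits the precision.

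Limma 3.58.1 in R 4.3.3 fitted CD133-positive minus CD133-negative with group as the only term. Benjamini-Hochberg adjustment ran over all 28230 probe sets, with a threshold of 0.05. A second fit added repetition, whose terms were tested by the moderated F test. Deviations from group means of same-numbered arrays correlated at 0.447 to 0.616 over probe sets in all 3 pairs, so the numbers paired the arrays by the data. Block values are printed where they change a call, and for some named genes where they do not. The fits were tested on simulated data. The 10 genes and the 7 trafficking lists were chosen with earlier results of these data known. The text names all 10 genes, list genes that passed in either fit or else the 2 of smallest unadjusted p, and 5 genes of most like pattern for MAL2 and for RAB25. RAB11B, MALL, PLS1 and MYO6 were named outside this rule, after their values were seen. PROM1 and some marker genes were also named. Of 141 list genes, 136 were measured by a probe set of 1 symbol. Promoter stretches came from RefSeq tables on GRCh38.p14. Alternatives were repeated quantile normalization, centring on array medians, a filter on dim probe sets, the leading rows included, trend and robust variances, and each array left out.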

Additional observations from a re-analysis of the deposited data

How the results depend on the processing

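For the 10 genes, 118 differences were recomputed under the alternatives, and 0 moved by as much as the spread between replicates. Only repeated quantile normalization and centring could have moved a difference that far. The other settings of the fit leave it unchanged, and leaving out 1 array of 3 cannot shift it by that spread. The sign changed in 8 of the 118 differences, all with 1 array left out and all for MAL, RAB11FIP1 or SYTL4. The other 7 genes kept theirs. With 1 array left out the MAL2 difference was 0.93 to 1.17 and that of RAB25 0.36 to 0.70. No other probe set of these genes was present, so averaging or swapping probe sets was not run. Over all probe sets, 1 passed with group as the only term, 84 with the replicate block, and 0 with a second quantile normalization, with arrays centred on their medians or with the leading rows included; with 1 array left out it was 0 to 2. The block count of 84 was itself 389 with trend and robust variances, 403 with the filter on dim probe sets, 0 with the leading rows included, 43 without either array of repetition 1, 18 without either of repetition 2 and 0 without either of repetition 3. Of the trafficking list genes 0 passed with group alone in every setting, and 1 with the replicate block. In block fits chosen after seeing the data, that count was 0 to 7 over the settings, 7 with the filter on dim probe sets, 6 with trend and robust variances, 2 after centring, and 0, DPP4 lost, with the leading rows included or without either array of repetition 3. After centring the genes were DPP4 and CAV1. With trend and robust variances AP1M2, MYO6, PLS1 and RAB3B passed as well, and with the filter these and CMTM3. The repetition F test passed 3680 probe sets, 4845 after centring, 6335 with trend and robust variances and 6791 of the 14115 that the filter kept. It passed 69 with the leading rows included and 63 to 2351 with 1 array left out. Of the 10 genes it passed 0, 3 with trend and robust variances and 3 after centring. It passed 4 of the 8 genes that the filter kept, and 0 with 1 array left out. The filter tests fewer probe sets, the leading rows add probe sets, and a left-out array removes its pair from the block fit; other causes were not tested.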
